A study of Mus musculus with 32 samples.

Results

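Long intergenic non-coding RNA (lincRNA) genes were taken as the genes with the biotype lincRNA in the GENCODE M21 annotation of mm10 (GRCm38), and 1784 of the 25058 genes counted in all 3 assays, or 7.12%, had it. Of the remaining genes, 18639 were protein_coding and served for comparison. The samples were kidney, liver, lung and spleen of C57BL/6J wild-type female mice 6 to 7 months old. Mice received 1 intraperitoneal dose of cisplatin at 10 mg per kg or the same volume of saline as control. The treatment protocol gives 4 h between injection and tissue collection, and a label of the samples gives 2 h. RNA-seq covered 2 control and 2 cisplatin libraries per organ. Damage-seq and XR-seq covered 2 cisplatin libraries per organ and no control, so that levels of damage and repair reads had no untreated background. Each organ is a mixture of cell types, and in such bulk samples fewer cells of a type and less RNA per cell cannot be told apart.

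lincRNAs are transcribed by RNA polymerase II, as mRNAs are, and are capped and often spliced, but they carry no long open reading frame. Many stay in the nucleus, most are rare, and the best studied build nuclear bodies (Malat1 in speckles, Neat1 in paraspeckles), silence a chromosome (Xist) or host small RNAs in their introns or exons. Cisplatin joins neighbouring guanines (GG) on 1 DNA strand, and the adduct blocks RNA polymerase II when it lies on the transcribed strand (TS), the template. In transcription-coupled repair the stalled polymerase calls nucleotide excision repair to that strand, while global repair works on both the TS and the non-transcribed strand (NTS). Damage-seq reads mark adducts that remain, and XR-seq reads are the excised oligomers, so both assays report each strand of each gene.

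The starts of 7 lincRNA genes are shown because these genes are described below, and because the stretches show where adducts could form. Reads and GG for the results below were counted over whole genes, not over these stretches. Each stretch of 150 bases runs from 50 bases before the annotated start through 100 bases of the gene, on the coding strand of GRCm38, 5′ to 3′. Capitals mark CC, which is a GG on the TS. A gg in lower case is a GG on the NTS. Malat1 and Neat1 are the nuclear body RNAs, 5830454E08Rik, Tmem250-ps and 5033430I15Rik had the highest XR-seq TS level per GG, and Gm48914 and C2cd6b had XR-seq reads mainly on the NTS.
Malat1 (chr19:5802573-5802722, minus strand): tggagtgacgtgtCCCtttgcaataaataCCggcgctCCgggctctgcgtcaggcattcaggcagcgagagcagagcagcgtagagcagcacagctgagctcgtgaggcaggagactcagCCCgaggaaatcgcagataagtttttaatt
Neat1 (chr19:5845379-5845528, minus strand): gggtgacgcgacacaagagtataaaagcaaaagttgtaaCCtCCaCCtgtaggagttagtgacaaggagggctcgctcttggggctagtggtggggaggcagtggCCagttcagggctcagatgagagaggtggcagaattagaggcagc
5830454E08Rik (chr9:120577281-120577430, plus strand): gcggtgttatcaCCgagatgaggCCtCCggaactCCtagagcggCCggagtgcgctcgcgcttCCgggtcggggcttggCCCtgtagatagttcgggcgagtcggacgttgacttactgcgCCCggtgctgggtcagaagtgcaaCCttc
Tmem250-ps (chr2:26140422-26140571, minus strand): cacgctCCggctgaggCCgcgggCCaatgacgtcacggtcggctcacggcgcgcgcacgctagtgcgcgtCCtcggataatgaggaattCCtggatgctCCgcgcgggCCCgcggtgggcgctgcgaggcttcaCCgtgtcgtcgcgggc
5033430I15Rik (chr13:45965203-45965352, plus strand): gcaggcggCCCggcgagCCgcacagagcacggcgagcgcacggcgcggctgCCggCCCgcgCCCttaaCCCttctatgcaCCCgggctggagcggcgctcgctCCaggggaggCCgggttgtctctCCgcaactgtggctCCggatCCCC
Gm48914 (chr14:32317886-32318035, minus strand): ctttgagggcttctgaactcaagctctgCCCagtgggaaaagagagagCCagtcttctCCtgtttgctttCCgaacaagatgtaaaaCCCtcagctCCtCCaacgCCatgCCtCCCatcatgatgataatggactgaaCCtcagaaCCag
C2cd6b (chr1:59003440-59003589, minus strand): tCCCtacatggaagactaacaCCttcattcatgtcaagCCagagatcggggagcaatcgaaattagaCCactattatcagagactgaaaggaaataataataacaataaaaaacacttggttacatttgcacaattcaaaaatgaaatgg
The Malat1 stretch held 6 GG on the TS and 9 on the NTS, and the Neat1 stretch held 4 and 20. The Gm48914 stretch held 15 GG on the TS and 5 on the NTS. Over whole genes the strands were closer, with 862 GG on the TS and 888 on the NTS of Gm48914 and 1165 and 1402 for Neat1. Malat1 had 264 GG on the TS and 477 on the NTS, so strand ratios below are per GG.

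lincRNA genes were shorter and far less expressed than protein_coding genes. The median lincRNA gene spanned 9168.5 bp with 3 exons and 1334 bp of exon, against 20607 bp, 8 exons and 3918 bp. GG on both strands were nearly as dense, at 114 per kb against 121 per kb. An overlapping gene on the opposite strand was annotated for 502 lincRNA genes (28.1%) and for 39.4% of protein_coding genes. RNA-seq was made from poly-A selected RNA with a kit that does not mark the strand, so RNA reads of such pairs cannot be told apart. In control libraries, an RPKM (reads per kb of exon, scaled to the library's depth) of 1 or more was reached by 107 lincRNA genes in the kidney, 67 in the liver, 76 in the lung and 133 in the spleen, or 6.00%, 3.76%, 4.26% and 7.46%. Of protein_coding genes, 59.7%, 50.4%, 65.3% and 60.2% reached it. Across organs, 224 lincRNA genes reached an RPKM of 1 somewhere and 32 in every organ, and 145 of the 224 (64.7%) did so in 1 organ only, against 13.9% of protein_coding genes. No RNA read was counted for 40 lincRNA genes.

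Reads on genes numbered 15619474 to 162270280 per RNA-seq library, 10658675 to 59779770 per XR-seq library and 1571167 to 6441367 per Damage-seq library. lincRNA genes took 0.11% to 0.66% of RNA-seq reads, and in every library Malat1, Neat1, Xist and a few other RNAs made up much of this, the top 3 giving 43.1% to 74.8%. They took 0.38% to 0.78% of XR-seq reads on the TS, 1.86% to 2.00% on the NTS, and 3.43% to 4.79% of Damage-seq reads on either strand. A lincRNA gene had a median of 244 XR-seq reads and 326 Damage-seq reads over the 8 libraries of an assay, against 7051 and 700 for a protein_coding gene. The markers of each organ's main cell type were far higher in that organ than in any other. The study's methods describe the replicates as biological, while the labels name no animal. The control libraries of lung, and those of spleen, differed from each other by 2.75 and 2.98 times the variance of counting alone, against 39.3 to 349 times for the other pairs. Each of these control pairs was therefore counted as 1 sample, although its difference was somewhat larger than counting noise. Lung and spleen RNA were then fitted with all organs in 1 model. Their p-values and standard errors (SE) therefore use a spread shared by all organs, not the spread within lung or spleen alone. In every organ p-values measure only the spread between the libraries fitted.

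The first comparison asked whether lincRNA levels changed after cisplatin. No lincRNA gene passed the test in any organ, with edgeR's quasi-likelihood test for changes beyond 0.4 on the log2 scale and a Benjamini-Hochberg adjusted p of 0.05 over all genes tested. In kidney, 279 lincRNA genes were tested, and of all genes tested 2.40% were called higher and 2.65% lower. In liver, 208 were tested and the shares of all genes were 0% and 0%. In lung and spleen, 689 were tested, with 0% called higher and 0.366% lower in lung and 0.12% and 0.0157% in spleen. By contrast Cdkn1a, the p53-induced inhibitor of cyclin-dependent kinases, had an RPKM of 4.24 and 8.46 in control kidney and 121 and 128 after cisplatin (log2 fold change 4.33, adjusted p = 0.00718). It rose by this test in the kidney, and in the other organs its cisplatin values also lay above its control values, with adjusted p of 0.254 in the liver, 0.727 in the lung and 1 in the spleen. The study, with DESeq2, reported Cdkn1a as raised in all 4 organs. Since the test used here did not call it outside the kidney, a lack of lincRNA calls in the other organs does not show a lack of change. In kidney, 26 lincRNA genes were called without a filter on low counts and 38 with the replicate number as a block. The lack of calls in kidney by the reported test therefore does not show a lack of change either. Shares of all genes under these 2 settings were not counted.

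At an unadjusted p of 0.05 the edgeR test picked 30 lincRNA genes in the kidney (17 higher and 13 lower), 18 in the liver (11 and 7), 35 in the lung (9 and 26) and 13 in the spleen (10 and 3). These were 10.8%, 8.65%, 5.08% and 1.89% of the lincRNA genes tested, against 18.98%, 9.28%, 7.41% and 3.02% of all genes. The median log2 fold change of lincRNA genes was -0.05 in the kidney, 0.26 in the liver, 0.18 in the lung and 0.00 in the spleen, beside 0.00, 0.03, 0.01 and -0.03 over all genes. DESeq2 called 3 lincRNA genes in the kidney, 1 in the liver, 1 in the lung and 0 in the spleen. Single libraries decided these counts: edgeR called 25 lincRNA genes in kidney without control replicate 1, 12 without control replicate 2 and 5 without cisplatin replicate 2. In liver it called 14 without cisplatin replicate 1, 1 without cisplatin replicate 2 and 1 without control replicate 2. With every lung library counted as a replicate and lung fitted alone, 15 were called. Shares of all genes under such other settings were not counted, here or below. Whether lincRNA genes were called more or less often than all genes under them is therefore not shown. The difference of responses between organs was called for 0 lincRNA genes in all 6 pairs of organs, and 1 was called in all pairs together without a filter on low counts. Of all genes this test called 0.0733% for kidney against liver, 0.12% for kidney against lung, 0.304% for kidney against spleen, 0% for liver against lung, 0.0366% for liver against spleen and 0.0105% for lung against spleen.

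The lincRNA genes nearest to the threshold were looked up after the values were seen. In kidney, 2610035D17Rik had an RPKM of 4.12 and 6.32 in control and 0.724 and 1.64 after cisplatin, with a log2 fold change of -2.04 (SE 0.47, adjusted p = 0.0749 by edgeR and 0.0128 by DESeq2). Its groups did not overlap. 1700072G22Rik had 2 and 0 reads in control kidney and 136 and 64 after cisplatin (adjusted p = 0.0547 by edgeR), and 1700016G22Rik had 0 and 0 reads against 127 and 51 (adjusted p = 0.0584 by edgeR and 0.0193 by DESeq2). Both were nearly silent in control kidney. 5430416N02Rik went from 0.203 and 0.0714 RPKM to 1.26 and 0.456 (log2 fold change 2.78, adjusted p = 0.0949 by edgeR and 0.0199 by DESeq2). In liver, E230001N04Rik had 0 and 6 reads in control and 36 and 58 after cisplatin (adjusted p = 0.216 by edgeR and 0.0148 by DESeq2). In lung, 2900052N01Rik fell from 0.738 and 0.606 RPKM to 0.024 and 0.0857 by DESeq2 (adjusted p = 0.00839), while edgeR gave a log2 fold change of -3.38 (SE 0.61) with an adjusted p of 0.081. In spleen the lowest edgeR value was that of 1810028F09Rik, with 1 and 2 reads in control and 50 and 137 after cisplatin (adjusted p = 0.615).

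Named lincRNAs were grouped by function in lists, on which 55 of 84 symbols were in the files and 29 had the biotype lincRNA. Of the 29, 20 were tested in kidney, 17 in liver and 25 in each of lung and spleen. None was called, 5 had an unadjusted p under 0.05 in kidney, 2 in liver and 0 in lung and spleen. Under at least 1 other setting without a replicate block, 8 of the 29 were called in kidney, 4 in liver and 3 in lung, with 0 for spleen, and the genes are named below. DESeq2 names for kidney, liver and lung are those given above, and none of them is on a list.

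Malat1 had the highest mean control RPKM of all lincRNA genes in kidney, lung and spleen, and AW112010, named after its values were seen, had it in liver, at 124. Malat1, which locates splicing factors to nuclear speckles, had an RPKM of 368 and 115 in control kidney and 550 and 333 after cisplatin (log2 fold change 0.95, SE 0.50, adjusted p = 0.46). The kidney groups overlapped, and 1 control library stood far above the other. edgeR called it in kidney without control replicate 1 (adjusted p = 8.49e-05) and without a filter on low counts (adjusted p = 0.0198). In liver Malat1 was at 51.4 and 37.1 RPKM in control and at 66 and 150 after cisplatin (log2 fold change 1.42, SE 0.58, adjusted p = 0.561), and it was called there without cisplatin replicate 1. Its control and cisplatin values did not overlap in liver, lung (190 and 201 against 247 and 237) or spleen (369 and 380 against 479 and 412). Neat1, the scaffold of paraspeckles, had an RPKM of 7.59 and 7.92 in control lung and 19.9 and 27.8 after cisplatin (log2 fold change 1.60, SE 1.04, adjusted p = 1). Its lung groups did not overlap, and with lung fitted alone it was called (adjusted p = 0.0464 by edgeR), but in kidney it was at 30.4 and 5.13 RPKM in control and 18.5 and 4.77 after cisplatin, and in spleen at 15.6 and 15.9 against 8.13 and 11.5. Miat and Meg3, which are best known from neurons and from an imprinted locus, stayed at or under 0.259 RPKM in all 16 libraries.

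Xist, which coats and silences the inactive X chromosome, differed between libraries of 1 group as much as Neat1 did. In kidney it had an RPKM of 34.6 and 5.68 in control and 38.4 and 7.24 after cisplatin, and in liver 29.7 and 6.15 against 25.3 and 5.94. In both organs library 1 of each treatment was high and library 2 was low, and Xist was called in kidney without control replicate 1. In spleen Xist had an RPKM of 54.7 and 56.3 in control and 19.6 and 31.9 after cisplatin (log2 fold change -1.16, SE 1.10, adjusted p = 1). Its activators Jpx and Ftx, from the same region of the X chromosome, also had lower values after cisplatin in spleen, Ftx with 3.18 and 3.37 RPKM in control and 1.78 and 2.39 after treatment. Their adjusted p was 1. H19, an imprinted RNA of fetal tissue, was at 1.04 and 0.718 RPKM in control lung and at 4.42 and 0.686 after cisplatin, so that 1 library stood apart.

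None of the hosts of small RNAs was called in the reported tests, and several were under other settings. The 5 lincRNAs of the snoRNA host list, whose introns carry guides for RNA modification, had a median log2 fold change of 0.80 for kidney, 1.19 for liver, 0.72 for lung and -0.04 for spleen. Snhg12 was at 1.94 and 1.13 RPKM in control liver and at 4.5 and 4.94 after cisplatin (log2 fold change 1.69, SE 0.41, adjusted p = 0.224). Epb41l4aos was at 8.12 and 7.43 in control liver against 17 and 31.8 (log2 fold change 1.76, SE 0.51, adjusted p = 0.338). These liver groups did not overlap, and both genes were called in liver without cisplatin replicate 1, as was Snhg6. Snhg6, Snhg12 and Snhg20 were called in kidney without control replicate 1, and Snhg20 in lung with each library as a replicate. Among microRNA hosts, Mir17hg, the host of a growth-promoting microRNA cluster, was at 1.71 and 0.144 RPKM in control kidney and 14.2 and 2.26 after cisplatin (log2 fold change 3.32, SE 1.22, adjusted p = 0.217). It was called in kidney without a filter on low counts, with either control replicate or cisplatin replicate 2 left out, and in lung with each library as a replicate. Mir155hg, known from activated lymphocytes and macrophages, was at 0 and 0.101 RPKM against 0.625 and 0.34 (log2 fold change 2.78, SE 0.99, adjusted p = 0.202). Both had higher values in each kidney cisplatin library than in either control library.

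Among lincRNAs linked to p53 or genome stability, Trp53cor1 (lincRNA-p21) is encoded beside Cdkn1a and is a known p53 target. In kidney it was at 0 and 0.0584 RPKM in control and at 0.515 and 0.166 after cisplatin (log2 fold change 3.11, SE 1.07, adjusted p = 0.186), and in lung at 0.107 and 0.157 against 0.0727 and 0.076. It was called in kidney without a filter on low counts (adjusted p = 0.00363 by edgeR) and without control replicate 2. The kidney values separated the groups at a level far below that of Cdkn1a. 2900097C17Rik (Norad), which binds Pumilio proteins and helps keep chromosome number stable, was at 21.3 and 18 RPKM in control kidney and 39.9 and 30.3 after cisplatin (log2 fold change 0.90, SE 0.18, adjusted p = 0.094). It was called without a filter on low counts, without control replicate 1 and when tested against a log2 fold change of 0. Pvt1, the neighbour of Myc, was at 0.259 and 0.174 RPKM against 0.0732 and 0.0885 in kidney (log2 fold change -1.30, SE 0.49, adjusted p = 0.26). Its values after cisplatin were also below control in both libraries of liver and of lung.

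The immune and tissue lists held Bvht (Braveheart), named for heart development, with an RPKM of 13.3 and 16.6 in control lung and 24.9 and 32.6 after cisplatin (log2 fold change 0.87, SE 0.43, adjusted p = 0.884). Mir142hg, the host of a microRNA of blood cells, was at 9.81 and 9.27 RPKM in control lung and at 3.89 and 6.16 after cisplatin. Lncbate1, a brown fat lincRNA, was at 2.27 and 2.91 RPKM in control lung and at 0.859 and 0.167 after cisplatin (log2 fold change -2.53, SE 1.17, adjusted p = 0.719). Cell type markers moved in the same lung libraries. The summed RPKM of 5 B cell markers was 143 and 144 in control lung and 46 and 33.2 after cisplatin, with 2 of the 5 called lower. That of 5 T cell markers was 35.5 and 33.7 against 12.7 and 13.1, and that of 4 markers of high endothelial venules was 92 and 94.3 against 8.8 and 6.76, with 1 of the 4 called lower. That of 5 fat markers was 480 and 470 against 124 and 51.5. In spleen the summed RPKM of 5 markers of pancreatic acinar cells was 0.558 and 0.45 in control and 1270 and 963 after cisplatin, with 5 of 5 called higher. Their part in the lincRNA values of lung and spleen was not tested.

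**Figure D1:**
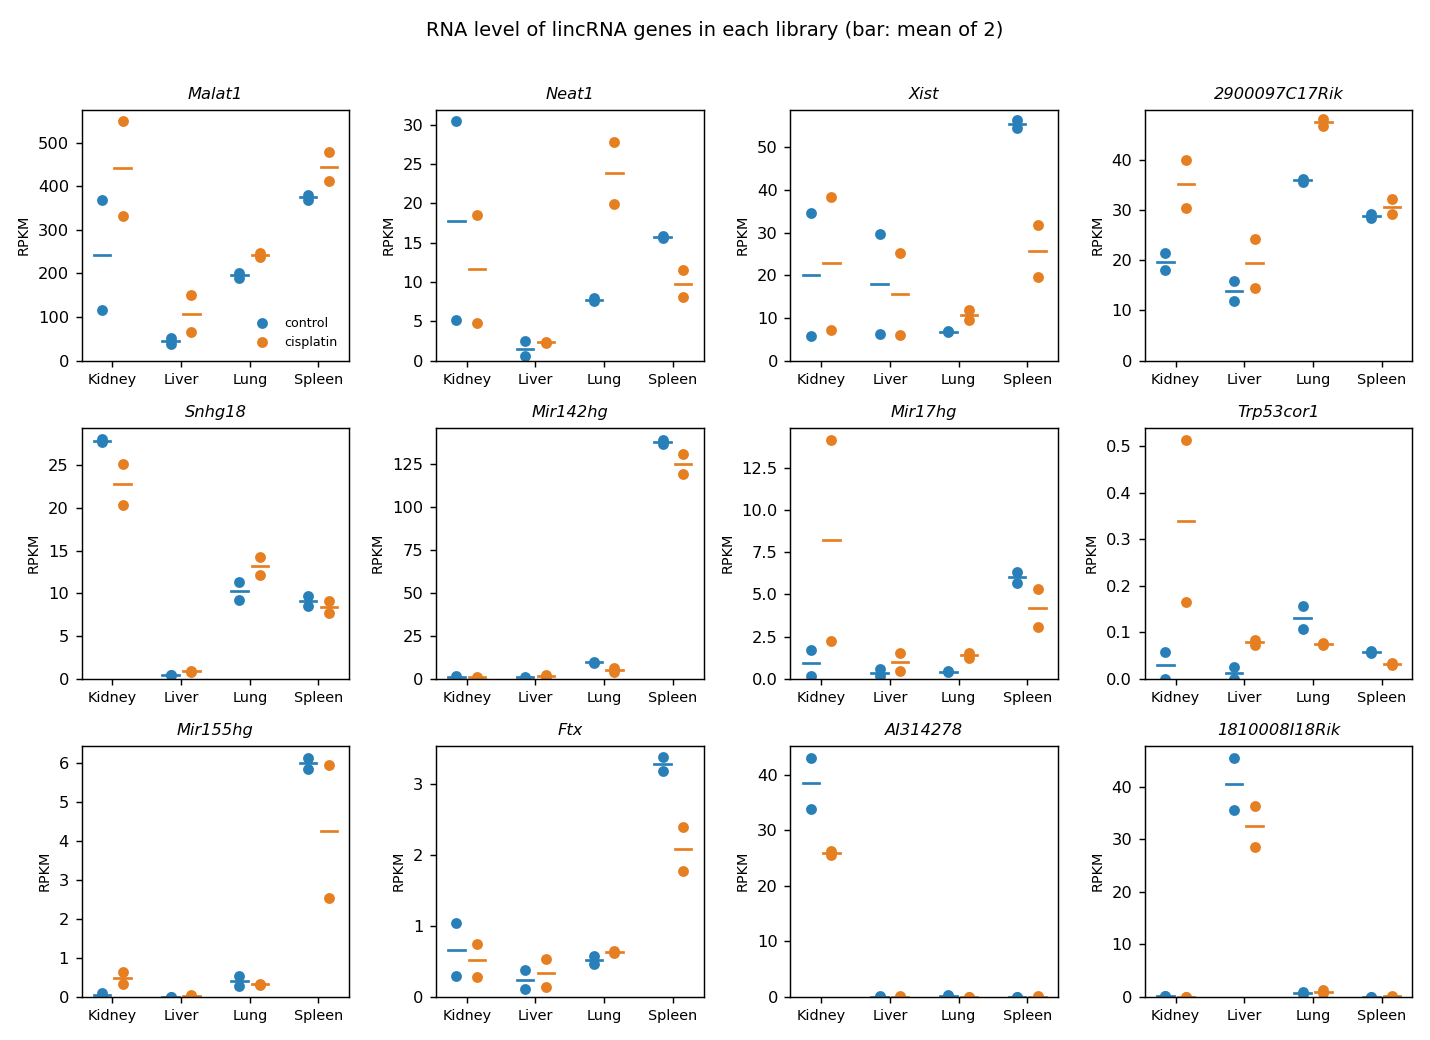
RPKM of 12 lincRNA genes in each RNA-seq library (points) with the mean of the 2 libraries of a group (bars), for control and cisplatin in 4 organs; each vertical axis starts at 0 and has its own scale. Malat1 spans 37.1 to 550, Xist and Neat1 differ widely between the 2 kidney libraries of 1 group, and AI314278 and 1810008I18Rik are high in 1 organ.

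In control tissue, by contrast, many lincRNA genes were called higher in 1 organ. A gene was called organ-high where its control level passed edgeR's quasi-likelihood test against each of the other organs, with an adjusted p of 0.05 and a log2 fold change of at least 1. Of 689 lincRNA genes tested, 45 were organ-high in the kidney, 47 in the liver, 24 in the lung and 47 in the spleen, and of all genes tested 5.62%, 6.64%, 6.44% and 7.70% were. The lincRNA shares were 6.53%, 6.82%, 3.48% and 6.82%, so they lay near those of all genes except in lung. DESeq2 called 42, 43, 12 and 40, and the difference between lung and the other organs was not tested.

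The organ-high lincRNAs with the highest levels are given by organ. In kidney, D630029K05Rik was at 40.4 and 37.5 RPKM and AI314278 at 43.1 and 33.9, both under 1 RPKM in all control libraries of other organs. In liver, 1810008I18Rik was at 35.6 and 45.5 RPKM, and Gm48633, encoded near Apob, was at 32.2 and 11.3. In lung, Bvht was as given above and 2410004I01Rik was at 8.68 and 7.6 RPKM. In spleen, Mir142hg was at 139 and 136 RPKM and AU020206 at 117 and 120, and both were also found in control lung, at 9.81 and 9.27 and at 30 and 29.5.

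Excision repair reads followed the organ of expression. Of the 45 kidney-high lincRNA genes, 35 (77.8%) had their highest XR-seq TS level of the 4 organs in kidney, and 46 of 47 (97.9%) liver-high, 12 of 24 (50.0%) lung-high and 39 of 47 (83.0%) spleen-high genes had it in their own organ. Over all 1784 lincRNA genes, 22.2%, 30.8%, 16.4% and 30.6% had their highest level in kidney, liver, lung and spleen. The median log2 difference between the TS level in the gene's own organ and the mean of the others was 3.36 in the kidney, 4.85 in the liver, 1.04 in the lung and 2.64 in the spleen, beside 1.70, 1.32, 1.04 and 1.75 for organ-high protein_coding genes. 1810008I18Rik had 455 and 294 TS reads in the 2 liver XR-seq libraries and no more than 20 in any other library. AU020206 had 363 and 1302 TS reads in spleen, 2569 and 1888 in lung and 227 and 240 in kidney. High RNA did not always come with TS reads above NTS reads: D630029K05Rik had 0 and 43 TS reads against 52 and 36 NTS reads in kidney (log2 TS/NTS -2.83, adjusted p = 0.353), and 1810008I18Rik had 455 and 294 TS against 265 and 320 NTS reads in liver (0.61, adjusted p = 0.661).

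The next comparison asked on which strand the excised oligomers lay. TS and NTS counts were compared in each organ by edgeR's quasi-likelihood test with offsets for library total and GG count, for 1414 lincRNA genes. TS was above NTS for 144 lincRNA genes in the kidney, 146 in the liver, 172 in the lung and 184 in the spleen, where 55.2%, 50.2%, 57.9% and 56.6% of all genes tested were called so. NTS was above TS for 53, 49, 65 and 70 lincRNA genes, where 5.20%, 6.02%, 6.42% and 6.11% of all genes were. TS calls in every organ numbered 73 of 1414 lincRNA genes (5.16%), against 8999 of 17170 protein_coding genes (52.4%). NTS calls in every organ numbered 25 (1.77%) against 274 (1.60%). lincRNA genes had fewer reads to test, with a median of 244 XR-seq reads over the libraries against 7051 for protein_coding genes. The part of read number in these shares, and in those by RNA level below, was not tested. In any organ, 276 lincRNA genes (19.5%) had a TS call and 104 (7.36%) an NTS call. Of these, 93 and 40 had theirs in 1 organ only, or 6.58% and 2.83% of those tested. The matching shares of all genes or of protein_coding genes were not counted, so these counts do not show a trait of lincRNA genes. D230017M19Rik, Gm47889 and Gm48558, named after their values were seen, were called TS in 1 organ and NTS in another. The counts depended on the libraries: TS calls were 259 in the kidney without replicate 2, 47 and 51 in the liver without replicate 1 or 2, 74 in the lung without replicate 1 and 101 in the spleen without replicate 1. DESeq2 gave 259, 213, 238 and 269 TS calls.

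TS calls were more frequent among lincRNA genes with more RNA. Of lincRNA genes under 0.1 RPKM after cisplatin, 3.08%, 5.15%, 4.40% and 5.05% had a TS call in kidney, liver, lung and spleen. The protein_coding shares at that level were higher, at 8.35%, 13.99%, 9.03% and 10.96%. At 0.3 to 1 RPKM the lincRNA shares were 32.4%, 40.2%, 32.5% and 32.7%, against 57.4%, 72.3%, 51.8% and 55.2% of protein_coding genes. At 10 RPKM or more the shares were 66.7% of 18 genes in the kidney, 33.3% of 9 in the liver, 62.5% of 16 in the lung and 58.8% of 17 in the spleen, against 88.0%, 71.2%, 90.0% and 88.5% of protein_coding genes at that level. No lincRNA gene at 10 RPKM or more had an NTS call in any organ. Of protein_coding genes at that level 0.48%, 0.80%, 0.98% and 0.48% had one, so with so few lincRNA genes this lay near the same share.

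Of the 29 lincRNAs on the lists, 12 had a TS call in the kidney, 11 in the liver, 15 in the lung and 13 in the spleen, and none had an NTS call. Neat1, Xist, Jpx, Ftx, Snhg20 and Pvt1 had a TS call in every organ. Neat1 had 1976 and 2320 TS reads against 299 and 435 NTS reads in the kidney, a log2 TS/NTS of 2.84, and the ratio was 3.27 in the liver, 4.07 in the lung and 4.38 in the spleen (adjusted p of 1.53e-05 in the kidney and lower elsewhere). Ftx, at under 1 RPKM in all organs but spleen and 1 control kidney library, had 4468 and 3515 TS reads against 588 and 470 in liver (2.86, adjusted p = 2.44e-05). Pvt1, which spans 340111 bp, had 5084 and 14140 TS reads against 138 and 649 in spleen (4.80, adjusted p = 1.58e-06) and 2.01 in kidney. Malat1, with far more RNA but fewer GG, had 35 and 272 TS reads against 19 and 36 in spleen (2.79, adjusted p = 0.123) and was called in the other organs. Thus every TS count of these genes lay above the NTS count of its library.

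Some listed genes had ratios above 0 in 1 organ and below 0 in another. Trp53cor1 had 142 and 400 TS reads against 185 and 412 NTS reads in kidney (log2 TS/NTS -0.28, adjusted p = 0.531), but 2641 and 2483 against 143 and 189 in liver (3.89, adjusted p = 4.78e-05), with 2.18 in lung and 2.82 in spleen. Kidney was thus the organ in which its RNA was highest after cisplatin and in which TS and NTS reads were nearly even. Mir155hg had 332 and 452 TS reads against 107 and 122 in kidney (1.88, adjusted p = 0.0167) and 208 and 135 against 352 and 349 in liver (-0.95, adjusted p = 0.174), with 1.85 in spleen (adjusted p = 0.0176) and -1.22 in lung (adjusted p = 0.086). Its RNA was listed at 0 in 3 of 4 liver libraries. Meg3, with a positive ratio in every organ, had 552 and 392 TS reads against 0 and 8 in lung (adjusted p = 0.00885), and 17 and 123 against 14 and 10 in spleen (adjusted p = 0.284). Differences of strand ratio between organs were not tested.

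The lincRNA genes with the highest XR-seq TS level per GG, averaged over organs, were 5830454E08Rik, Tmem250-ps, 5033430I15Rik, Snhg10 and 1110006O24Rik, which span 744 to 3708 bp. Tmem250-ps, whose name marks a pseudogene and whose reads may be shared with a related gene, had 30.7 and 29.6 RPKM in control lung and 1649 and 1253 TS reads against 74 and 43 NTS reads there (log2 TS/NTS 4.55, adjusted p = 1.17e-05). 5033430I15Rik, at 0.835 and 0.641 RPKM in control lung, had 375 and 227 TS reads against 61 and 18 (3.01, adjusted p = 0.00271). Snhg10, a snoRNA host, had 405 and 403 against 48 and 24 (3.67, adjusted p = 0.0158). Besides Tmem250-ps, the genes of this list were at or under 3.23 RPKM in all 16 RNA-seq libraries. The start of 1110006O24Rik lay 92 bp from the divergent start of Rab35, that of 5033430I15Rik 245 bp from Atxn1 and that of Snhg10 409 bp from Glrx5. Over all TS calls, a divergent start of another gene within 2000 bp was found for 48 of 276 lincRNA genes called in any organ (17.4%) and for 21 of 73 called in every organ (28.8%), beside 7.92% of all tested and 4 of 104 with an NTS call (3.85%). Genes called TS in every organ also had medians of 0.689 RPKM after cisplatin and 4032 XR-seq reads, against 0.0266 and 413 for all tested. The comparison of divergent starts was not matched for either.

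The 25 lincRNA genes with NTS calls in every organ had a median RPKM after cisplatin of 0.0558. Gm48914 had 30 and 5 TS reads against 289 and 447 NTS reads in kidney (log2 TS/NTS -4.59, adjusted p = 0.00672). In liver it had 7 and 5 against 1751 and 1278 (-7.90, adjusted p = 0.000735), in lung 0 and 4 against 865 and 707, and in spleen 2 and 0 against 205 and 957. Its RPKM was under 0.1 in all 16 RNA-seq libraries. The stretch of Gm48914 shown above has more GG on the TS than on the NTS, but the whole gene, over which reads were counted, has 862 and 888. C2cd6b had 0 and 13 TS reads against 49 and 87 in kidney, Gm48855 had 0 and 1 against 437 and 271 in lung (-9.22, adjusted p = 0.0011), and Gm45897 had 10 and 8 against 880 and 576 in liver (-6.49, adjusted p = 0.000791). Gm48898 had the widest range among genes called in every organ, from -2.24 in kidney, with 23 and 9 TS against 80 and 94 NTS reads, to 0 and 0 against 100 and 317 in spleen. Gm32856 ranged widely in the other direction, from 62 and 192 TS against 22 and 7 NTS reads in kidney (3.02) to 165 and 662 against 0 and 2 in spleen.

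Many of these genes had a protein_coding neighbour on the strand that carried the reads. The neighbour is on the opposite strand, so the NTS of the lincRNA gene is the TS of that neighbour. Gm48855 lies within Map2k1, C2cd6b 1408 bp past the 3′ end of Stradb, Gm45897 2334 bp past Golga4, Gm48898 5265 bp past Ldah and 1700047G03Rik 11253 bp past Sub1. With a distance of up to 20000 bp, chosen after seeing the data, 19 of the 25 genes (76.0%) overlapped an opposite-strand protein_coding gene or lay past its 3′ end, 8 by overlap and 11 past the end. The share was 59 of 104 (56.7%) among those called NTS in any organ, 12 of 73 (16.4%) among those called TS in every organ and 225 of 1414 (15.9%) of all tested. Of protein_coding genes with NTS calls in every organ, 260 of 274 (94.9%) had such a neighbour, against 46.7% of all tested. Gm48914 had none, and its nearest opposite-strand gene, Ogdhl, starts 4034 bp away and points away. These are descriptions of position, and no test of reads running on from a neighbour was made.

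**Figure D2:**
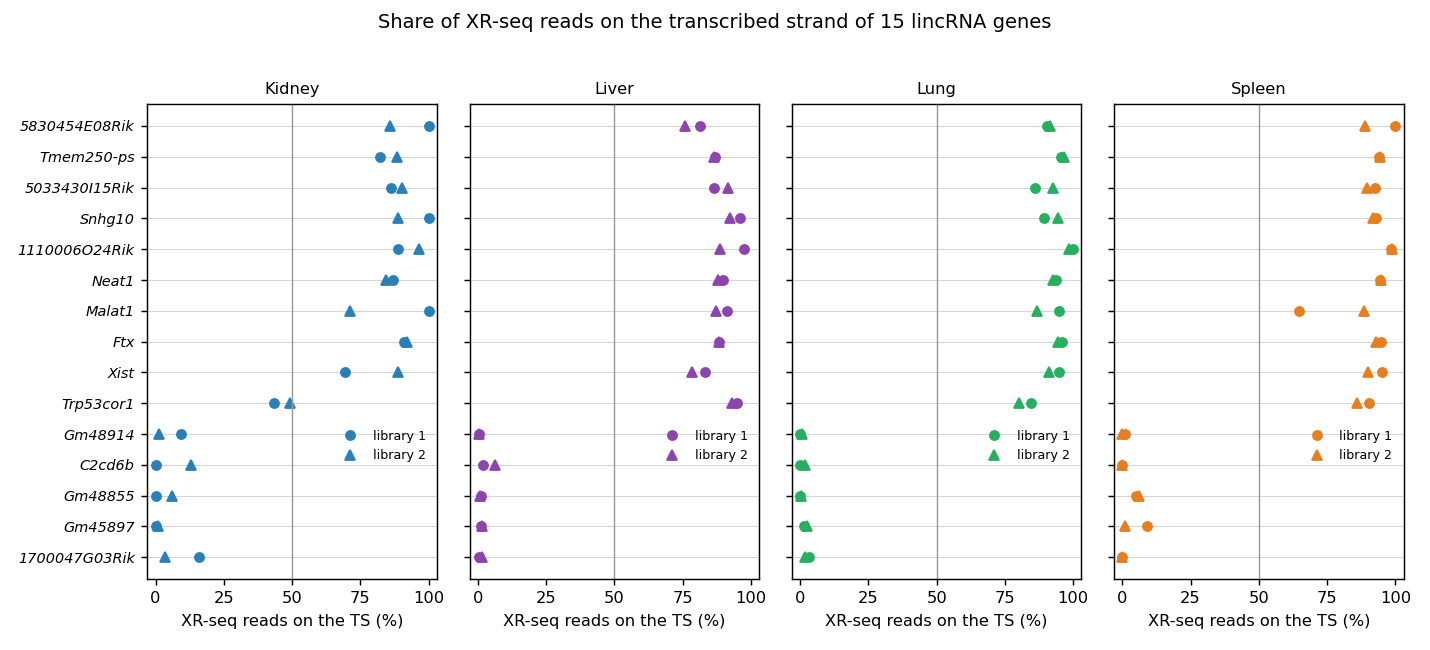
Share of XR-seq reads on the TS, as a percentage of TS plus NTS reads not adjusted for GG, for 15 lincRNA genes in each of the 2 libraries per organ (circle and triangle), with a line at equal shares. The upper 9 genes lie on the TS side in all 8 libraries, Trp53cor1 is near the line in kidney only, and the lower 5 genes lie at 16.0% or less.

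To set lincRNA genes beside protein_coding genes of like expression, genes were put in bins of RPKM after cisplatin in the same organ. The study's filters (at least 10 GG, under 100000 bp and at least 20 reads in each assay) kept 787 lincRNA and 14271 protein_coding genes. The difference of medians was taken in each bin and library and averaged with the number of lincRNA genes as weights. No test was run, and values are mean ± SD over 8 libraries. Averaged over all bins, log2 TS/NTS in XR-seq was 0.91 for lincRNA genes and 0.90 for protein_coding genes, a difference of 0.01 ± 0.08 (SD, n = 8) with 5 of 8 libraries higher.

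This average joined bins that differed in direction. Under 0.1 RPKM, log2 TS/NTS was 0.28 ± 0.13 for lincRNA and 0.09 ± 0.07 for protein_coding genes, and at 0.1 to 0.3 RPKM 1.30 ± 0.50 and 0.96 ± 0.43. From 0.3 to 1 RPKM it was 1.72 ± 0.34 and 2.27 ± 0.41, from 1 to 3 RPKM 2.52 ± 0.59 and 3.40 ± 0.19, from 3 to 10 RPKM 3.07 ± 0.63 and 3.80 ± 0.49, and at 10 RPKM or more 3.05 ± 0.55 and 3.53 ± 0.69. Thus lincRNA genes had the higher ratio in the 2 lowest bins and the lower one in the other 4. Among all genes tested by strand, TS calls under 0.1 RPKM were still less frequent in lincRNA than in protein_coding genes, as given above. Split at 0.3 RPKM, a border chosen after seeing the data, the difference was 0.22 ± 0.09 below it (0.48 against 0.26), higher in 8 of 8 libraries. At or above it the difference was -0.65 ± 0.20 (2.21 against 2.86), a ratio 0.638 times that of protein_coding genes and lower in 8 of 8 libraries. Averaged above the border, the log2 NTS level per GG was 0.67 ± 0.40 higher in lincRNA genes, 1.59-fold and in 8 of 8 libraries, and the TS level differed by -0.04 ± 0.06. The NTS difference was 0.97 with 5 reads added to each count and 0.46 with summed reads. Both the NTS and the TS average joined bins that differed. From 0.3 to 1 RPKM the TS level was higher in lincRNA genes in 7 of 8 libraries (0.33 ± 0.22) and the NTS level in 8 of 8 (1.02 ± 0.39). From 1 to 3 RPKM the TS level was lower in 8 of 8 libraries (-0.48 ± 0.38) and the NTS level higher in 7 of 8 (0.59 ± 0.56). From 3 to 10 RPKM the TS level was again lower in 8 of 8 libraries (-0.50 ± 0.13), as it was at 10 RPKM or more (-0.31 ± 0.19), while the NTS level was higher in 4 and in 5 of 8. These bins held only 22 to 38 and 8 to 16 lincRNA genes, and the SD over libraries does not measure the spread between genes. So the lower ratio came with a higher NTS level from 0.3 to 1 RPKM, with both a lower TS and a higher NTS level from 1 to 3 RPKM, and with a lower TS level above that. Without genes that overlap or follow an opposite-strand protein_coding gene, in both classes, the difference was -1.14 at or above 0.3 RPKM and 0.02 below it. This choice kept 80.8% of lincRNA and 50.9% of protein_coding genes. Under 0.3 RPKM the difference was 0.35 without overlapping genes alone and 0.042 with genes of any length, so it moved with each choice of genes, and the part of neighbouring genes in it was not tested.

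**Figure D3:**
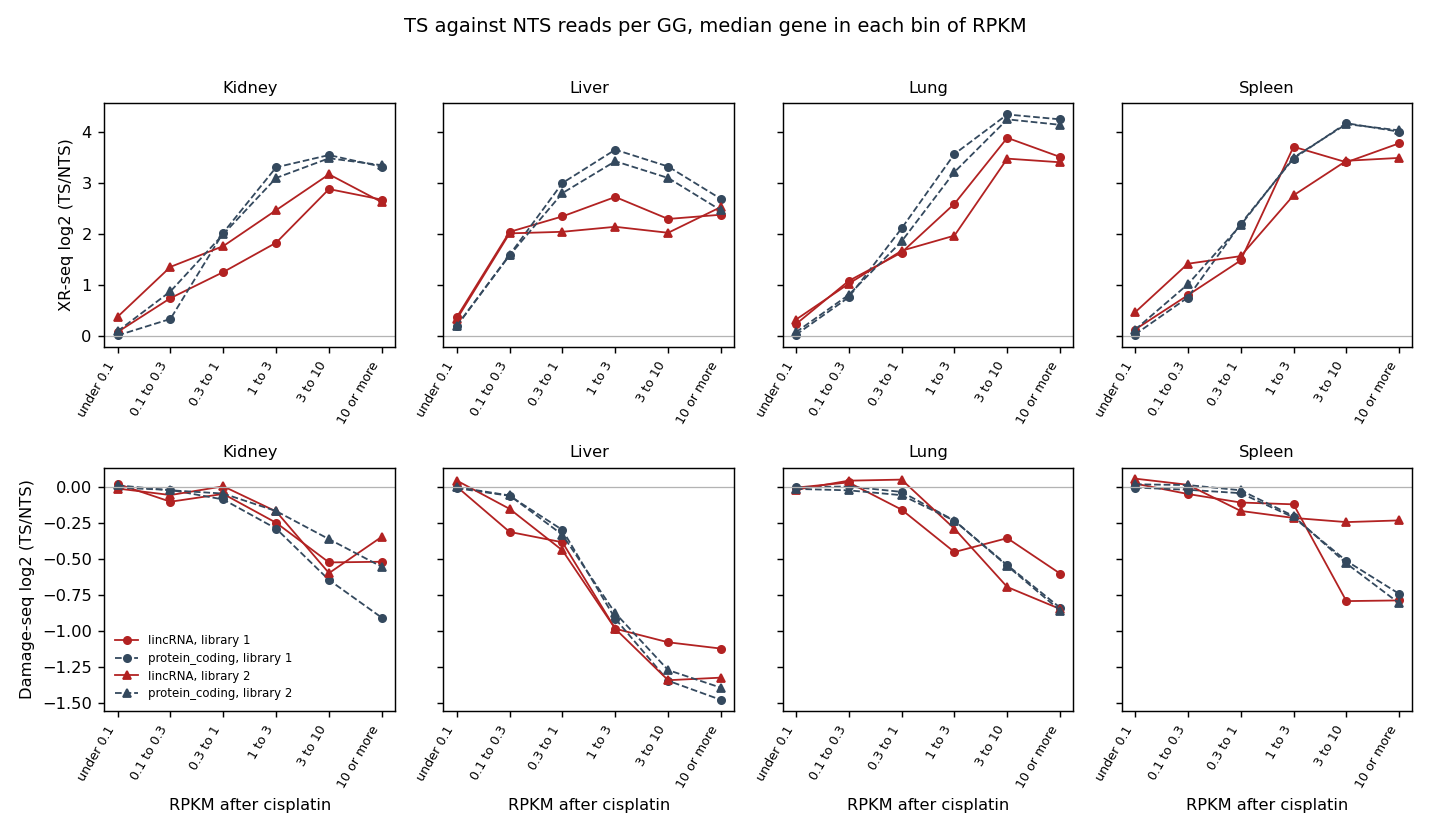
Median log2 TS/NTS reads per GG in bins of RPKM after cisplatin, for XR-seq (upper row) and Damage-seq (lower row) in each library of 4 organs, lincRNA genes in solid red and protein_coding genes in dashed blue. XR-seq ratios of lincRNA genes start above those of protein_coding genes under 0.1 RPKM and lie mostly below them from 0.3 RPKM on, while the Damage-seq curves of the classes lie nearer each other and part most at 10 RPKM or more.

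**Figure D4:**
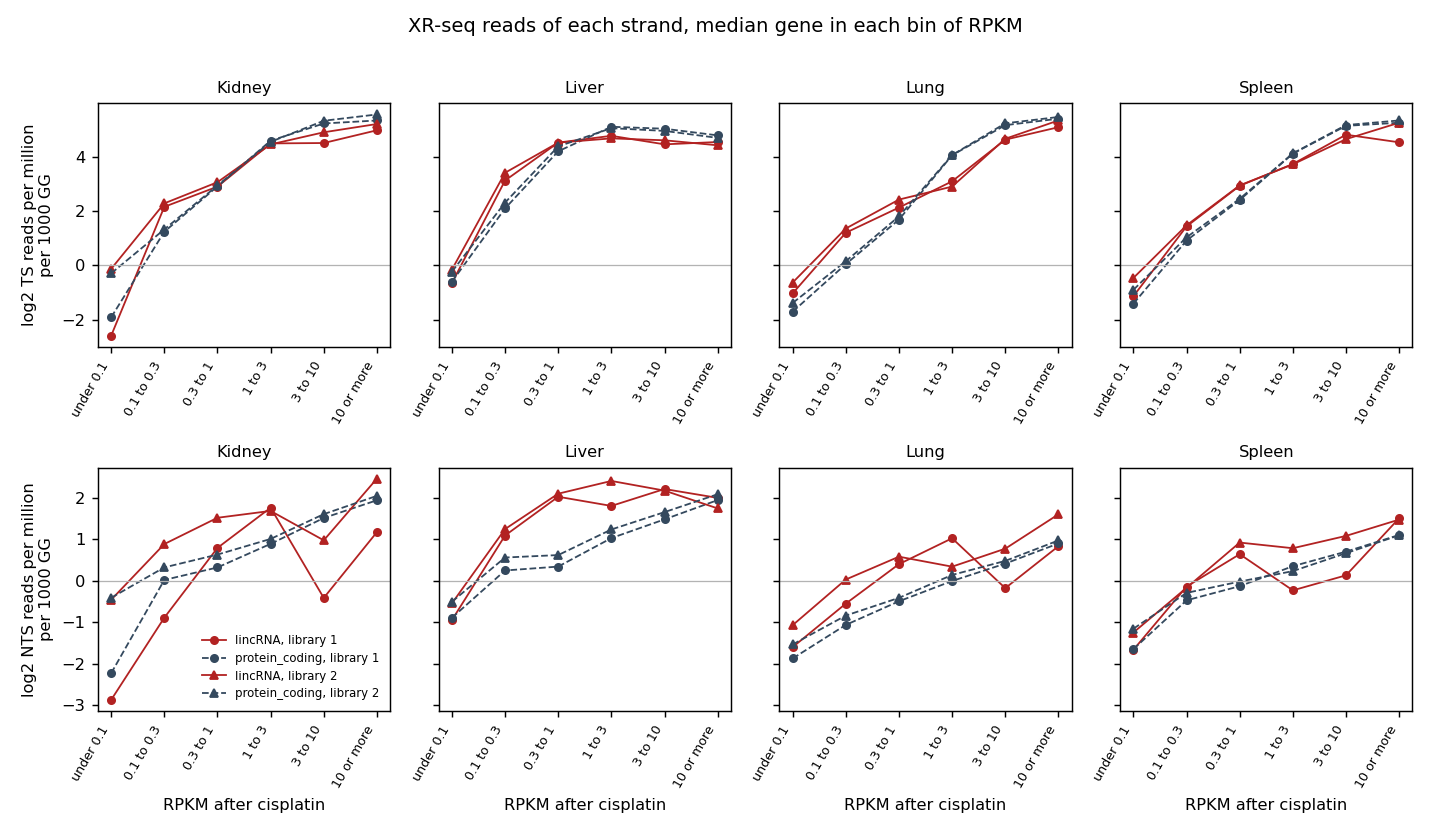
Median log2 XR-seq reads per 1000 GG, scaled to library depth, on the TS (upper row) and on the NTS (lower row) in the same bins and libraries, lincRNA genes in solid red and protein_coding genes in dashed blue. From 1 RPKM on the lincRNA TS curves lie below in 8 of 8 libraries, and on the NTS the lincRNA curves are mostly the higher ones between 0.3 and 3 RPKM.

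The strands differed less between the classes in Damage-seq. The log2 TS/NTS of Damage-seq in lincRNA and protein_coding genes was 0.01 ± 0.03 and 0.00 ± 0.01 under 0.1 RPKM, -0.44 ± 0.35 and -0.39 ± 0.31 from 1 to 3 RPKM, -0.71 ± 0.36 and -0.72 ± 0.37 from 3 to 10 RPKM and -0.73 ± 0.37 and -0.95 ± 0.32 at 10 RPKM or more. The difference over all bins was 0.00 ± 0.02 (SD, n = 8), and at or above 0.3 RPKM -0.01 ± 0.06 with 4 of 8 libraries higher. So both classes had fewer Damage-seq reads on the TS at higher RNA levels. At 10 RPKM or more, with 8 to 16 lincRNA genes, the lincRNA ratio was nearer 0 in 7 of 8 libraries, by 0.23 ± 0.21, and no test of this was run. The log2 Damage-seq level per GG was 0.08 ± 0.04 higher in lincRNA genes on the NTS and 0.09 ± 0.03 higher on the TS, in 8 of 8 libraries each.

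Gene by gene, few lincRNAs were called in Damage-seq. Of 1501 lincRNA genes tested, NTS was above TS for 16 in the kidney, 43 in the liver, 61 in the lung and 24 in the spleen, where 20.9%, 32.7%, 27.1% and 13.1% of all genes tested were called so. TS was above NTS for 7, 11, 28 and 8, where 0.408%, 0.974%, 1.51% and 0.586% of all genes were. NTS calls were 1 and 10 in kidney without replicate 1 or 2, 14 and 28 in liver, and 8 and 4 in spleen, and DESeq2 gave 3, 25, 9 and 5 in the order of organs above.

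The 4 lincRNA genes with an NTS call in every organ were Ftx, 1700020I14Rik, 1700026F02Rik and Gm33838, the last 3 named after their values were seen. The share of all genes with such calls in every organ was not counted. Ftx had a log2 TS/NTS of -0.65 in the kidney, -1.15 in the liver, -0.56 in the lung and -1.01 in the spleen, and 1700020I14Rik, among the most abundant lincRNAs of lung, had -1.34, -3.17, -2.06 and -2.40. Neat1 had 18 and 19 TS reads against 56 and 41 NTS reads in liver (-1.11, adjusted p = 0.00202), -1.51 in lung, -1.25 in spleen and -0.41 in kidney (adjusted p = 0.135). Malat1 had 2 and 4 TS reads against 35 and 17 NTS reads in liver (-2.20, adjusted p = 0.00124), and in kidney 35 and 39 against 71 and 61, which is even per GG (0.02). Ftx and 1700020I14Rik, and Neat1 in the 3 organs of its NTS calls, also had positive XR-seq log2 TS/NTS values, those of 1700020I14Rik lying between 2.28 and 3.55. The other 2 had almost no RNA. Gm33838, at no more than 0.0493 RPKM in the cisplatin mean of any organ, had 276 and 177 TS reads against 727 and 802 NTS reads in liver (-1.40, adjusted p = 3.39e-24), with an XR-seq log2 TS/NTS of -1.88 there and 1.46 in kidney. It spans only 5878 bp, while the median lincRNA gene had 326 Damage-seq reads over all 8 libraries. The source of its unusually many reads was not tested. 1700026F02Rik had an RPKM of 0 in the cisplatin mean of every organ, Damage-seq values of -0.37 to -0.66 and XR-seq values of 2.44 in kidney and -2.11 in spleen.

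Calls in both assays were read side by side for the 1265 lincRNA genes tested in both. Of those with an XR-seq TS call, 126 in the kidney, 131 in the liver, 147 in the lung and 161 in the spleen, the Damage-seq NTS was above the TS for 10, 23, 25 and 6, and the reverse was called for 0, 0, 1 and 0. These were 7.94%, 17.6%, 17.01% and 3.73% of the genes with a TS call. Among the 1092, 1093, 1060 and 1039 genes with no XR-seq call, the Damage-seq NTS was above the TS for 5, 18, 28 and 14, or 0.458%, 1.65%, 2.64% and 1.35%. Genes with a TS call in any organ had medians of 2354.5 XR-seq reads and 0.286 RPKM after cisplatin. All lincRNA genes tested in XR-seq had medians of 413 and 0.0266. The part of read number and RNA level in this contrast was not tested, and the same shares of protein_coding genes were not counted. The median Damage-seq log2 TS/NTS of the genes with a TS call was -0.25, -0.37, -0.27 and -0.19. Of the 47, 41, 58 and 65 with an XR-seq NTS call, the Damage-seq TS was above the NTS for 2, 5, 4 and 1, and the median was 0.18, 0.48, 0.03 and 0.17. Both named after their values were seen, 2810425M01Rik, which overlaps Fam207a on the other strand, and Gm35188, which overlaps Arhgap5, were called NTS in XR-seq in every organ and TS in Damage-seq in at least 3.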

How the data were processed

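RNA-seq (16 libraries), Damage-seq (8) and XR-seq (8) were analysed from counts that the authors deposited. Reads of Damage-seq and XR-seq were handled by the authors with cutadapt, BWA on mm10 and Picard for duplicates, then limited to those with GG where the adduct should lie and counted per gene and strand. For RNA-seq the authors used STAR and featureCounts. Versions are not given in the sources used here. The deposited values are raw counts, and 16 lines without an identifier were dropped.

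Biotypes, exon lengths and GG counts came from GENCODE M21 on GRCm38. Tests used edgeR 4.0.16 in R 4.3.3 with filterByExpr and TMM scaling, and DESeq2 1.42.0 as an alternative. Kidney and liver RNA-seq were fitted alone. Lung and spleen RNA-seq, organ differences and strands were fitted with all libraries of the assay, a lone control being assumed to vary like the other groups. Strand fits had a term for each library. XR-seq and Damage-seq levels were reads per 1000 GG scaled to library depth, with 0.5 added to counts. Scripts were tested on simulated data.

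Members and lists were chosen with earlier results of these data known. Named genes were the listed lincRNAs, the 2 organ-high genes of highest RPKM per organ, the 5 with the highest XR-seq TS level, up to 5 with NTS calls in every organ, ordered by log2 ratio, and the 3 with the widest range between organs. Genes named outside this rule are marked. Alternatives were size factors, no filter, DESeq2, other thresholds and models, no GG adjustment, 5 reads added, summed reads, gene subsets and leaving out each library. The split at 0.3 RPKM and the distance of 20000 bp were chosen after seeing the data. The start sequence of 1 further gene is not reported here.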

Additional observations from a re-analysis of the deposited data

How the results depend on the processing

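Counts of lincRNA genes called after cisplatin were 0 in the reported tests and moved in kidney to 26 without a filter on low counts, 3 by DESeq2, 7 when tested against a log2 fold change of 0 and 3 with all organs in one model, and from 0 to 25 when 1 library was left out. In liver they were 1 without the filter, 1 by DESeq2, 1 with all organs in one model and 0 to 14 when 1 library was left out. In lung they were 4 without the filter, 1 by DESeq2, 2 with lung alone and 15 with each library as a replicate, and in spleen 1 with each library as a replicate. The difference of responses had 1 call without the filter. With the replicate number as a block, the pairing gave 38 calls in the kidney, 8 in the liver, 24 in the lung and 1 in the spleen. The deviations of same-numbered libraries correlated across genes with 0.653 in the kidney, 0.502 in the liver, 0.0681 in the lung and 0.161 in the spleen. There are 2 pairs per organ, and the labels show only that the samples of a pair share a number. The study's methods adjusted for a known batch with ComBat. The labels do not say which libraries formed a batch, and the reported RNA tests had no batch term. Of the 29 listed lincRNAs the block called 8 in the kidney (2900097C17Rik, Malat1, Mir155hg, Mir17hg, Snhg6, Snhg12, Snhg20 and Trp53cor1), Epb41l4aos and Snhg12 in the liver, and Bvht, Lncbate1, Mir17hg, Neat1, Snhg20 and Xist in the lung. Organ-high calls in lung were 12 by DESeq2. XR-seq TS calls in the kidney were 259 by DESeq2, and leaving out 1 library gave 121 to 259 in the kidney, 47 to 51 in the liver, 74 to 117 in the lung and 101 to 136 in the spleen. Damage-seq NTS calls were 3, 25, 9 and 5 by DESeq2, 28 in kidney and 47 in spleen without adjustment for GG counts, and 1 to 10 in kidney, 14 to 28 in liver and 4 to 8 in spleen when 1 library was left out. Where no setting shows a cause, the cause was not tested.

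Against protein_coding genes of like expression, the XR-seq log2 TS/NTS difference of 0.01 over all bins was 0.16 without overlapping genes and -0.17 with genes of any length. The TS level difference of 0.24 was -0.11 with summed reads and 0.59 without overlapping genes, and the NTS level difference of 0.19 was 0.53 with 5 reads added, 0.43 with any length and -0.0777 with summed reads, which turned its direction. The Damage-seq NTS difference of 0.08 was 0.26 with 5 reads added. Among alternatives chosen after seeing the data, the TS/NTS difference under 0.3 RPKM was 0.35 without overlapping genes, 0.042 with any length and 0.0169 without genes that overlap or follow an opposite-strand protein_coding gene. At or above 0.3 RPKM it was -0.88 with summed reads, -0.86 with any length and -1.14 without such neighbours. There the TS level difference was -0.42, 0.14 without overlapping genes and 0.14 without such neighbours, and the NTS difference 1.14 without them, with 0.64 under 0.3 RPKM. The Damage-seq difference was -0.0246 with summed reads under 0.3 RPKM and 0.0559 with 5 reads added above it. Of the alternatives chosen first, 87 left a count within 1.5 times, or a difference within the SD of the libraries, of the reported value, and 48 moved it further. Few reads per lincRNA gene limit these tests, and in Damage-seq a gene had a median of 326 reads over 8 libraries.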
